A study of Mus musculus with 18 samples.

Results

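A set of 7 S100 genes and a pair of annexin genes whose products bind S100 proteins were followed across mouse embryonic stem cells before and after a pancreatic differentiation protocol. The 9 genes are S100a1, S100a4, S100a6, S100a10, S100a11, S100a13 and S100a16 with Anxa1 and Anxa2, taken by symbol from 54532 genes in the deposited table. They were chosen by family with the FPKM differences between the groups of these libraries in view, so their own levels and differences are given below as a description, without p-values. Where a member is said to be called, the threshold of the fit over all genes (adjusted p under 0.05) was applied only to set its count beside the share of all genes, and it supports nothing about the member. All 9 symbols were found once. Of these, 8 passed the filter on low values (at least 0.5 FPKM in at least 3 libraries) and entered the fit, and the other one, S100a4, was at 0 in all 18 libraries.

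RNA was sequenced from ES-E14TG2a, a blastocyst-derived mouse embryonic stem cell line, in 6 groups of 3 replicates. The cells carried the names Ctrlv2, Arf-B and Arf-C and were sampled at day 0 and at day 8. The protocol used activin A at 20 ng/mL together with Matrigel from day 0, followed from day 4 to day 8 by retinoic acid (5, in a unit written as μM/ml) and FGF10 at 10 ng/mL. The genotype label reads wild type for every library, and the sources used here do not say how Arf-B and Arf-C were made or whether each is 1 clone. Nothing states that replicates came from separate cultures, so any p-value here measures the spread between these samples only. Both Arf lines were set against the same 3 Ctrlv2 libraries at each day, so their differences from Ctrlv2 are not independent of each other.

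S100 proteins are small calcium sensors that form dimers, each subunit carrying a pair of EF-hand calcium-binding loops. Binding of calcium opens a surface that docks partner proteins, among them the annexins, which attach to acidic phospholipids of membranes in a calcium-dependent way. S100A10 is the exception that has lost calcium binding and is held permanently in the active shape, forming a tetramer with annexin A2 at the cell surface and on endosomes, while S100A11 binds annexin A1 and annexin A2. Most mammalian S100 genes lie together on a single chromosome, which in the mouse is chromosome 3.

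All 7 S100 genes lay on chromosome 3 of mm10, in 2 blocks. S100a1, S100a13, S100a16, S100a4 and S100a6 fell within 113.15 kb (90511034 to 90624181), and S100a11 and S100a10 within 44.156 kb (93520488 to 93564643), with 2896.3 kb between the blocks. Anxa2 lay on chromosome 9 (69453620 to 69491795) and Anxa1 on the minus strand of chromosome 19 (20373428 to 20390944).

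The promoter sequences of S100a6, S100a11 and Anxa2 are shown because these 3 members had the largest day 0 differences between the Arf lines and Ctrlv2 on the log2(FPKM + 1) scale. By the ratio of means, Anxa1 (2.79 and 4.53 times lower in Arf-B and Arf-C) came before S100a11. Each is the 250 bases before the start site, 5′ to 3′ in gene orientation, from RefSeq on GRCm38.p6. They are chr3:90612644-90612893 on the plus strand for S100a6, chr3:93520246-93520495 on the plus strand for S100a11 and chr9:69453433-69453682 on the plus strand for Anxa2. Capitals mark matches on either strand to any of 5 fixed motifs. The AP-1 motif was spelled TGANTCA. The Sp1 motif was spelled GGGCGG, and the TATA box was spelled TATAAA. For Tead factors the letters were GGAATG. The last was a retinoic acid response element, a direct repeat of AGGTCA spaced by 5 bases.
S100a6: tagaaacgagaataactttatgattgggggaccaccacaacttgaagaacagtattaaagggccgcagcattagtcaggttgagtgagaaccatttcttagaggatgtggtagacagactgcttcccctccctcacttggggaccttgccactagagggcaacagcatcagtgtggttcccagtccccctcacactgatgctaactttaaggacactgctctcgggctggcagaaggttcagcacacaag
S100a11: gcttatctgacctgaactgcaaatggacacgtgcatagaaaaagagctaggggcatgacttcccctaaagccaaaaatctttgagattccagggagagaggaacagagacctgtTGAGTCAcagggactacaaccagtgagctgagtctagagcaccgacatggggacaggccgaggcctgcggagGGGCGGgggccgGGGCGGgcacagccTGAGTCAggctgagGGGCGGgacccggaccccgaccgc
Anxa2: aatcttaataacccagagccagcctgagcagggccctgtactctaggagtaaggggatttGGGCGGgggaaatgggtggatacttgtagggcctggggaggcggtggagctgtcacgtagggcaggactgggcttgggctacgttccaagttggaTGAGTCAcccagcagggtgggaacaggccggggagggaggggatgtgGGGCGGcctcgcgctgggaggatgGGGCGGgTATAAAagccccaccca
The S100a6 window held none of the 5 motifs. The S100a11 window held 2 matches to the AP-1 motif, both reading TGAGTCA, at -136 to -130 and at -38 to -32 from the start, and 3 matches to the Sp1 motif. In the Anxa2 window there were 1 AP-1 match at -95 to -89, 3 Sp1 matches, the last at -24 to -19, and a TATA box at -17 to -12. Of all 32851 RefSeq windows of 300 bases (250 before and 50 after the start), 7.81% held the AP-1 motif, 35.7% the Sp1 motif, 13.6% the TATA box, 14.7% the Tead motif and 0.00913% the retinoic acid element. No motif overlapped another in these 3 windows, and a match is a description of the letters, not a binding site. RefSeq windows were found for 8 of the 9 members, and S100a10 had no entry. S100a1 and S100a13 are read in opposite directions from starts 105 bases apart, so that their windows share 204 bases, which held none of the 5 motifs.

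The libraries held 10432590 to 33311220 reads on genes, a ratio of 3.19. Depth moved with day, with group means of 27179467 to 29917985 reads at day 0 and 12502136 to 19967324 at day 8. Cdkn2a, which encodes both p19Arf and p16Ink4a, was at 2.72 ± 0.752, 1.99 ± 0.269 and 2.29 ± 0.0982 FPKM at day 0 in the order Ctrlv2, Arf-B, Arf-C (SD, n = 3), and at 32.9 ± 1.22, 42.7 ± 2.33 and 44.1 ± 1.96 at day 8. At day 0 all 8 pluripotency markers had a mean above 1 FPKM in every line, as they also did in both Arf lines at day 8. Their day 0 sums were 5076.6 to 5156.8 FPKM in Ctrlv2 and 4126.5 to 4901.7 in Arf libraries. Of the 8, 3 were lower in every Arf library than in every Ctrlv2 library and 0 were higher. Marker levels for other cell types differed between the lines. The summed level of 11 mesenchyme and fibroblast markers at day 0 was 18.8 to 21.6 FPKM in Ctrlv2 libraries (4 of 11 with a mean of at least 1, Postn at 0) and 6.21 to 8.63 in Arf libraries (3 of 11 in both lines, Acta2 and Col3a1 at 0 in both). That gap was carried by Thy1, with means of 15.7, 2.59 and 2.01 in the order Ctrlv2, Arf-B, Arf-C. The other 10 markers summed to 4.88, 4.62 and 4.81, with differences in both directions. Of the 11 mesenchyme and fibroblast markers, 4 were lower in every Arf library than in every Ctrlv2 library. Among them were Thy1 and Pdgfrb (0.646 and 0.652 against 1.45). Only 1 was higher, Twist1 (2.43 and 2.55 against 1.51). For 11 primitive and parietal endoderm markers the summed level was 210 to 239 against 96.8 to 120 (7 of 11 against 6 of 11 in both lines, none at 0 in a whole group). Without Sparc, the marker with the widest gap, the other 10 summed to 125 to 146 against 71.4 to 96.3. Of the 11, 6 were lower in every Arf library than in every Ctrlv2 library. 1 was higher, Pdgfra, at a low level (0.227 and 0.284 against 0.205). The endoderm marker sum and Thy1 moved with several of the day 0 differences given below, and their part in those differences was not tested. In RNA from a whole culture, fewer cells of a type and less RNA per cell cannot be told apart.

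S100a6, a calcium sensor that binds the calcyclin-binding protein Cacybp and several annexins, had the largest differences of the 9 genes. In Ctrlv2 at day 0 its 3 libraries read 27.5, 31.1 and 28.7 FPKM. In Arf-B at day 0 they read 0.880, 0.865 and 0.502, and in Arf-C 0.0904, 0.502 and 0.232. The 6 Arf libraries at day 0 thus all lay far under the 3 Ctrlv2 libraries, with no overlap. Ctrlv2 was at 29.1 ± 1.85 FPKM (SD, n = 3), 38.9 times the Arf-B mean of 0.749 ± 0.214 and 106 times the Arf-C mean of 0.275 ± 0.209. On the log2(FPKM + 1) scale, which understates changes of low genes, the differences from Ctrlv2 were -4.11 (SE 0.116) and -4.57 (SE 0.116). The Arf-C values rest on 3, 20 and 8 reads, so the size of that ratio is loosely set, while Ctrlv2 had 1074 to 1267 reads. The Arf lines overlapped each other at day 0 (log2 0.46, not called except without replicate 2 of Arf-C, 0.59).

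By day 8 the S100a6 level in Ctrlv2 had come down to near that of the Arf lines, without overlapping it. The Ctrlv2 libraries at day 8 read 2.18, 1.79 and 1.62 FPKM, those of Arf-B 1.12, 1.10 and 0.906, and those of Arf-C 1.37, 1.33 and 1.20. The mean in Ctrlv2 was 15.6 times lower at day 8 than at day 0 (log2 difference -3.40, SE 0.116). In Arf-B the mean went from 0.749 to 1.04 (0.23, not called) and in Arf-C from 0.275 to 1.30 (0.86). At day 8 both Arf lines were still below all 3 Ctrlv2 libraries, by 0.49 and 0.31 on the log2 scale, at 26 to 46 reads per library. The day 8 difference of Arf-B was no longer called with a pseudocount of 0.1 or with limma voom on recovered reads. The Arf-C one was lost under those settings, under no filter, under both other scalings, in a fit of the compared groups alone and on leaving out replicate 1 or replicate 2 of Ctrlv2 or any of the 3 Arf-C replicates at day 8 (log2 -0.24 to -0.34 on leaving out a library). Ordered by level, S100a6 ran from Ctrlv2 day 0 through Ctrlv2 day 8, Arf-C day 8, Arf-B day 8 and Arf-B day 0 to Arf-C day 0. Each step except the last separated groups whose ranges did not overlap. FPKM here divides by a gene model of 1367 bases, of which 455 exonic bases lie beyond the end of the first-numbered annotated transcript, up to 9767 bases past it. Whether those bases carry reads was not tested. Few reads there would lower the printed levels, alike in every library only if the share of reads there was the same throughout.

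**Figure D1:**
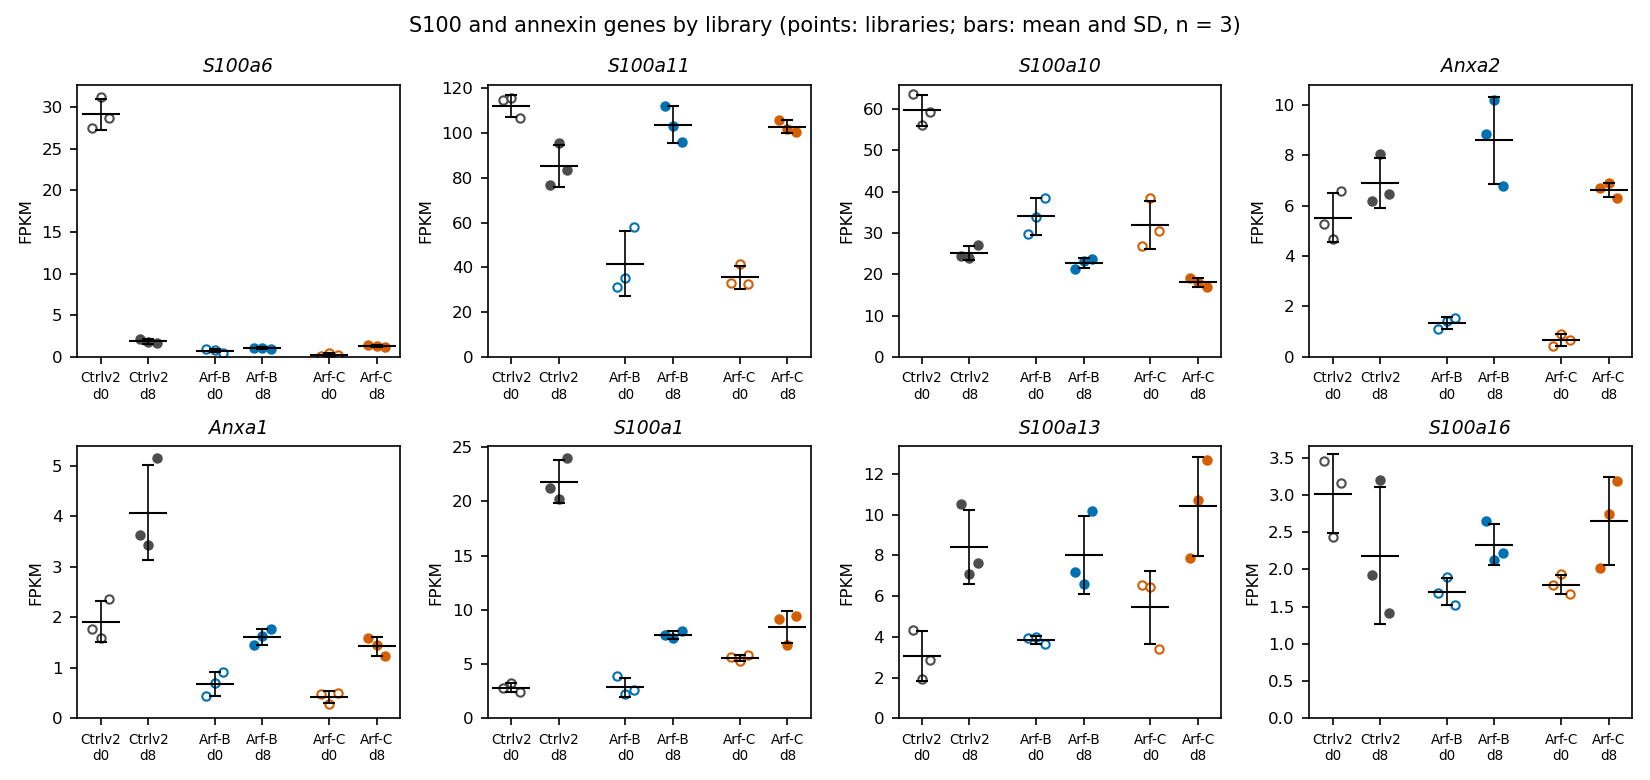
FPKM of the 8 measured genes in each of 18 libraries, by line and day (d0, open points; d8, filled points), with the group mean and SD as black bars and a linear axis from 0 in each panel. S100a6 stands at 27.5 to 31.1 FPKM in Ctrlv2 at day 0 and at 2.18 or less in every other library, S100a11 and Anxa2 are low only in the Arf lines at day 0, and S100a1 is highest in Ctrlv2 at day 8.

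S100a11, the most abundant of the genes per length, binds annexin A1 and annexin A2 and takes part in membrane repair. At day 0 the Ctrlv2 libraries held 115, 115 and 106 FPKM, against 31.3, 35.4 and 58.1 in Arf-B and 32.8, 41.4 and 32.4 for Arf-C. No Arf library came near the Ctrlv2 range, although replicate 3 of Arf-B stood above the other 2. The means were 112.2 ± 4.96 in Ctrlv2, 41.6 ± 14.4 in Arf-B and 35.5 ± 5.06 for Arf-C (SD, n = 3), which gave log2 differences of -1.46 and -1.64 (SE 0.165 each), or 2.70 and 3.16 times less than in Ctrlv2.

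At day 8 the order of S100a11 levels was the other way round. Ctrlv2 held 76.7, 95.4 and 83.5 FPKM, Arf-B 112, 103 and 95.9, and Arf-C 106, 102 and 100. All 6 Arf libraries were above all 3 Ctrlv2 libraries, but the log2 differences of 0.28 and 0.27 did not pass the threshold of an adjusted p under 0.05. With FPKM rescaled to the same sum the Arf-B difference was 0.41 and passed it, and in a fit of the compared groups alone both did. Within the Arf lines S100a11 was 2.50 and 2.89 times higher at day 8 than at day 0 (log2 1.35 and 1.52). In Ctrlv2 it was 1.32 times lower (log2 -0.40), a difference that was not called under no filter, under the same sum per library, or without any 1 of the 3 day 0 libraries, replicate 1 or replicate 3 at day 8 (log2 -0.33 to -0.44 on leaving these out). By level, Ctrlv2 day 0, Arf-B day 8 and Arf-C day 8 overlapped at the top as neighbours, Ctrlv2 day 8 came next with no overlap, and the Arf day 0 groups, which overlapped each other, were lowest.

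S100a10, the calcium-independent partner of annexin A2 whose complex binds plasminogen and its activator at the cell surface, had smaller differences. The Ctrlv2 libraries at day 0 read 63.6, 56.1 and 59.4 FPKM, those of Arf-B 29.7, 33.9 and 38.5, and those of Arf-C 26.9, 38.4 and 30.5. The Arf libraries were again all below Ctrlv2, with means of 34.0 ± 4.42 and 31.9 ± 5.87 against 59.7 ± 3.79 (SD, n = 3) and log2 differences of -0.80 and -0.89 (SE 0.111). At day 8 the level was lower in every line. Ctrlv2 held 24.3, 24.0 and 27.2 FPKM, Arf-B 21.3, 23.2 and 23.7, and Arf-C 19.1, 18.1 and 16.9. The drop from day 0 was 2.37 times in Ctrlv2, 1.49 times in Arf-B and 1.77 times for Arf-C (log2 -1.21, -0.55 and -0.78). S100a10 was thus the member that was lower at day 8 in all 3 lines. At day 8 Arf-C was 0.46 below Ctrlv2 on the log2 scale, and Arf-B 0.14 below, which was not called.

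Anxa2 encodes annexin A2, the membrane-binding partner of S100A10 and S100A11. At day 0 its Ctrlv2 libraries read 5.28, 4.67 and 6.59 FPKM, those of Arf-B 1.09, 1.42 and 1.53 and those of Arf-C 0.442, 0.901 and 0.670. The 3 groups did not overlap. The means of 1.35 ± 0.227 in Arf-B and 0.671 ± 0.230 for Arf-C were 4.09 and 8.22 times below the 5.51 ± 0.977 of Ctrlv2 (SD, n = 3; log2 -1.47 and -1.96, SE 0.142). The 2 Arf lines differed by 0.50 on the log2 scale, which was not called. At day 8 the libraries of all lines overlapped, with 6.19, 8.03 and 6.46 FPKM in Ctrlv2, 8.84, 10.2 and 6.76 in Arf-B and 6.68, 6.88 and 6.31 for Arf-C. From day 0 to day 8 Anxa2 was 6.37 times higher in Arf-B and 9.87 times for Arf-C (log2 2.02 and 2.20), whereas the Ctrlv2 groups overlapped (log2 0.28, not called except under the same sum per library, 0.40, or without replicate 3 of day 0, 0.39). Arf-B was called above Ctrlv2 at day 8 without its replicate 3 (0.42, against 0.27 with it) and under the same sum per library (0.38). Of its 3731 exonic bases, 98 (2.63%) are shared with Gm16144 on the opposite strand, and reads there cannot be assigned without strand.

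Anxa1 encodes annexin A1, a glucocorticoid-induced phospholipase inhibitor and binding partner of S100A11. Its pattern differed from that of Anxa2. At day 0 Ctrlv2 read 1.77, 1.60 and 2.36 FPKM, Arf-B 0.437, 0.707 and 0.911, and Arf-C 0.474, 0.289 and 0.502. At day 8 Ctrlv2 read 3.63, 3.43 and 5.15, Arf-B 1.45, 1.63 and 1.76, and Arf-C 1.60, 1.46 and 1.23. The Arf libraries were below all Ctrlv2 libraries at both days. The log2 differences from Ctrlv2 were -0.79 and -1.03 at day 0 and -0.94 and -1.05 at day 8 (SE 0.136), and the mean was 2.13, 2.36 and 3.39 times higher at day 8 than at day 0 in Ctrlv2, Arf-B and Arf-C. The day response in the Arf lines differed from that of Ctrlv2 by -0.15 and -0.02 (SE 0.192), which was not called in either line. Its table length is 2608 bases, against 2911 exonic bases in GENCODE vM21.

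The levels of S100a10 and Anxa2 were also compared within each library, where scaling cancels. The ratio of S100a10 to Anxa2 FPKM, both per gene length, was 12.04, 11.99 and 9.01 in Ctrlv2 at day 0, 27.1, 23.9 and 25.1 in Arf-B and 61.0, 42.6 and 45.4 for Arf-C. At day 8 it was 2.99 to 4.21 in Ctrlv2, 2.28 to 3.51 in Arf-B and 2.64 to 2.86 for Arf-C. The ratio was thus highest in Arf-C at day 0 and lowest at day 8 in all lines. At day 8 the ranges of Ctrlv2 and Arf-B overlapped, and Arf-C lay just under Ctrlv2. The size of the ratio rests on gene models of 1212 bases for S100a10 and 3731 for Anxa2. For S100a11 and Anxa1 the ratio had means of 60.7 ± 14.1, 61.8 ± 10.95 and 92.2 ± 44.0 at day 0, in the order Ctrlv2, Arf-B, Arf-C. At day 8 it was 21.7 ± 5.83, 65.0 ± 11.5 and 72.6 ± 8.03 (SD, n = 3). All 6 Arf libraries were above Ctrlv2 in that ratio at day 8, and the lines overlapped at day 0.

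The summed level of the 6 measured S100 genes was 209.9 ± 6.72 FPKM in Ctrlv2 at day 0, 84.8 ± 17.6 in Arf-B and 80.6 ± 11.6 for Arf-C (SD, n = 3). At day 8 the sums were 144.7 ± 7.48, 145.6 ± 5.81 and 143.7 ± 2.01 and overlapped. The make-up of the overlapping sums at day 8 was not the same. S100a11 made up 58.8% ± 3.63 of the sum in Ctrlv2, 71.2% ± 2.91 in Arf-B and 71.6% ± 1.56 for Arf-C. S100a6 made up 13.9% ± 1.07 of it in Ctrlv2 at day 0 and no more than 1.60% in any other library. These are shares of FPKM and rest on gene models of 511 bases for S100a11, 1212 for S100a10 and 1367 for S100a6.

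**Figure D2:**
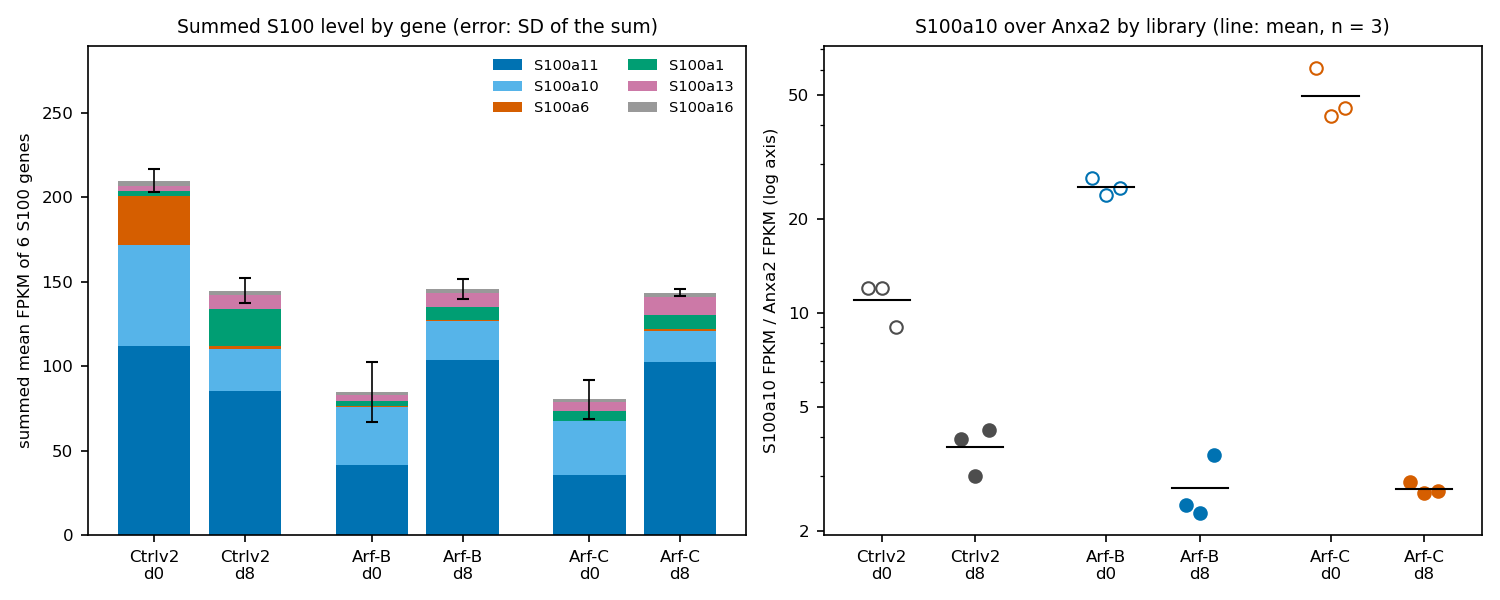
Left, mean FPKM of 6 S100 genes stacked by group, with the SD of the sum (n = 3). Right, the ratio of S100a10 to Anxa2 FPKM in each library on a log axis, with group means as lines. The sum is 209.9 FPKM in Ctrlv2 at day 0, 84.8 and 80.6 in the Arf lines at day 0 and 143.7 to 145.6 in all lines at day 8, and the ratio falls from 11.01 to 3.71 in Ctrlv2, from 25.4 to 2.74 in Arf-B and from 49.7 to 2.73 for Arf-C.

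S100a1, known as a regulator of calcium handling in muscle cells, had its highest level in Ctrlv2 at day 8, as did Anxa1. At day 0 its libraries read 2.81, 3.26 and 2.41 FPKM in Ctrlv2, 3.88, 2.21 and 2.57 in Arf-B and 5.64, 5.29 and 5.83 for Arf-C. At day 8 they read 21.2, 20.2 and 24.0 in Ctrlv2, 7.67, 7.36 and 8.03 in Arf-B and 9.15, 6.74 and 9.43 for Arf-C. Every line was higher at day 8, by 7.72 times in Ctrlv2, 2.67 times in Arf-B and 1.51 times for Arf-C (log2 2.58, 1.18 and 0.51, SE 0.139). At day 8 both Arf lines were below all Ctrlv2 libraries (log2 -1.39 and -1.28). At day 0 Arf-B overlapped Ctrlv2 (log2 0.00), and Arf-C was above both (0.79 against Ctrlv2). S100a1 was also the member called between the Arf lines at day 0, lower in Arf-B by 0.78 on the log2 scale. Its call did not hold without replicate 2 or 3 of Arf-B, without replicate 1 or 3 of Arf-C (log2 -0.66 to -0.78) and in a fit of those groups alone.

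S100a13, which carries fibroblast growth factor 1 out of cells by a route outside the classical secretory pathway, starts 105 bases from S100a1 on the other strand. Its libraries ranged from 1.94 to 4.36 FPKM in Ctrlv2, 3.64 to 3.99 in Arf-B and 3.39 to 6.57 for Arf-C at day 0, and from 7.11 to 10.5, 6.62 to 10.2 and 7.86 to 12.7 at day 8. In each line the day 8 libraries were all above those of day 0, with means 2.76, 2.08 and 1.91 times higher (log2 1.24, 0.87 and 0.84, SE 0.247). The lines overlapped at both days. Arf-C was called above Ctrlv2 at day 0 (log2 0.67), but not without replicate 2 or 3 of Ctrlv2 or replicate 1 or 2 of Arf-C (0.46 to 0.66), without the filter or in a fit of those groups alone. The day responses in the Arf lines differed from that of Ctrlv2 by -0.37 and -0.40 (SE 0.349), neither called. At day 8 its log2 difference from Ctrlv2 was -0.07 in Arf-B and 0.27 for Arf-C, neither called, beside the -1.39 and -1.28 of S100a1.

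S100a16, a widely expressed S100 protein, was low throughout. Its libraries ranged from 2.43 to 3.45 FPKM in Ctrlv2 at day 0 and from 1.53 to 1.93 in the 6 Arf libraries, without overlap (log2 -0.56 and -0.51, SE 0.166). At day 8 the lines overlapped, with 1.42 to 3.20 in Ctrlv2, 2.13 to 2.65 in Arf-B and 2.02 to 3.19 for Arf-C. The day 0 call was lost without replicate 1 of Ctrlv2 in both comparisons (-0.49 and -0.44) and, for Arf-C, without replicate 3 of Ctrlv2 or of Arf-C (-0.48 each). The day difference of S100a16 was called in no line (log2 -0.37, 0.30 and 0.37 in the order Ctrlv2, Arf-B, Arf-C). In both Arf lines it was called in a fit of the compared groups alone and under the same sum per library, and in Arf-C also without replicate 1 of day 8 (0.50). Limma voom on recovered reads called it in Ctrlv2 (-0.58), as did the fit without replicate 2 of day 0 (-0.47). Without replicate 2 of Ctrlv2 at day 8, which read 3.20, S100a16 was called lower at day 8 than at day 0 in Ctrlv2 (-0.59, against -0.37 with it) and higher in Arf-C than in Ctrlv2 at day 8 (0.44, against 0.22 with it). S100a4, a marker of motile fibroblasts, had no read in any library. A count of 3 reads of it would equal 0.159 to 0.484 FPKM, depending on the library, for counting error only. Of its 584 exonic bases, 302 (51.7%) are shared on the same strand with Gm42674, which was also at 0 in all 18 libraries, and whether the counting of such shared bases sets the 0 was not tested.

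Counted together, the members stood as follows against all 17200 genes tested. At day 0, 6 of the 8 tested members were called lower in Arf-B than in Ctrlv2 and none higher, where 39% of all genes were called in either direction and 20% lower. For Arf-C 6 were called lower, beside 21.5% of all genes (S100a6, S100a11, S100a10, Anxa2, Anxa1 and S100a16) and 2 higher (S100a1 and S100a13), against 42.8% in either direction. The members' median log2 difference was -0.79 and -0.96, and that of all genes 0.00 and 0.00. At day 8, 3 members were called lower in Arf-B (33.2% of all genes called, 16.9% lower) and 4 in Arf-C (33.6%, 16.8% lower), none was called higher, and the medians were -0.10 and -0.18. These counts were taken on genes chosen with the values in view, so nothing is read from them.

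**Figure D3:**
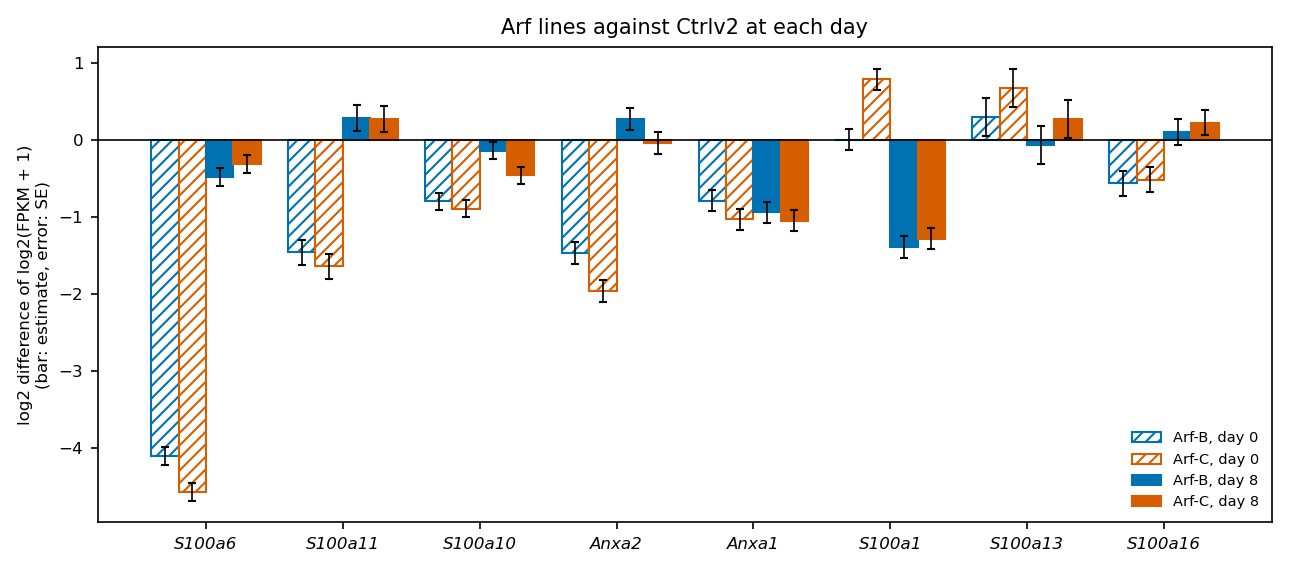
Log2 difference of log2(FPKM + 1) between each Arf line and Ctrlv2 for the 8 tested members, at day 0 (hatched) and day 8 (filled), with SE. The S100a6 bars reach -4.11 and -4.57 at day 0 and -0.49 and -0.31 at day 8, Anxa1 stays between -0.79 and -1.05 at both days, and S100a1 moves from 0.00 and 0.79 to -1.39 and -1.28.

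Between day 0 and day 8, 3 members were called higher and 3 lower in Ctrlv2, where 68.3% of all genes were called. In Arf-B 5 were called higher and 1 lower (66.7% of all genes), and in Arf-C 6 and 1 (66.6%). The member called lower in both Arf lines was S100a10. Of the members called lower in Ctrlv2, S100a6, S100a11 and S100a10, the first 2 had the opposite sign in both Arf lines. The S100a6 difference in Arf-B (0.23) was not called. The difference between the day response of an Arf line and that of Ctrlv2 was called for 6 of 8 members in each line, 5 higher and 1 lower, beside 33.5% and 38.3% of all genes. It was 3.63 and 4.26 for S100a6, 1.75 and 1.91 for S100a11, 1.74 and 1.92 for Anxa2, 0.66 and 0.44 for S100a10, 0.67 and 0.74 for S100a16, and -1.39 and -2.07 for S100a1 (log2, Arf-B first). Between the Arf lines 1 member was called at day 0, beside 0.343% of all genes. At day 8, when 0.0581% of all genes were called, 0 members were called. The widest day 8 differences of Arf-B from Arf-C were -0.34 for S100a13 and 0.32 each for S100a10 and Anxa2 (log2). As above, nothing is read from these counts.

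**Figure D4:**
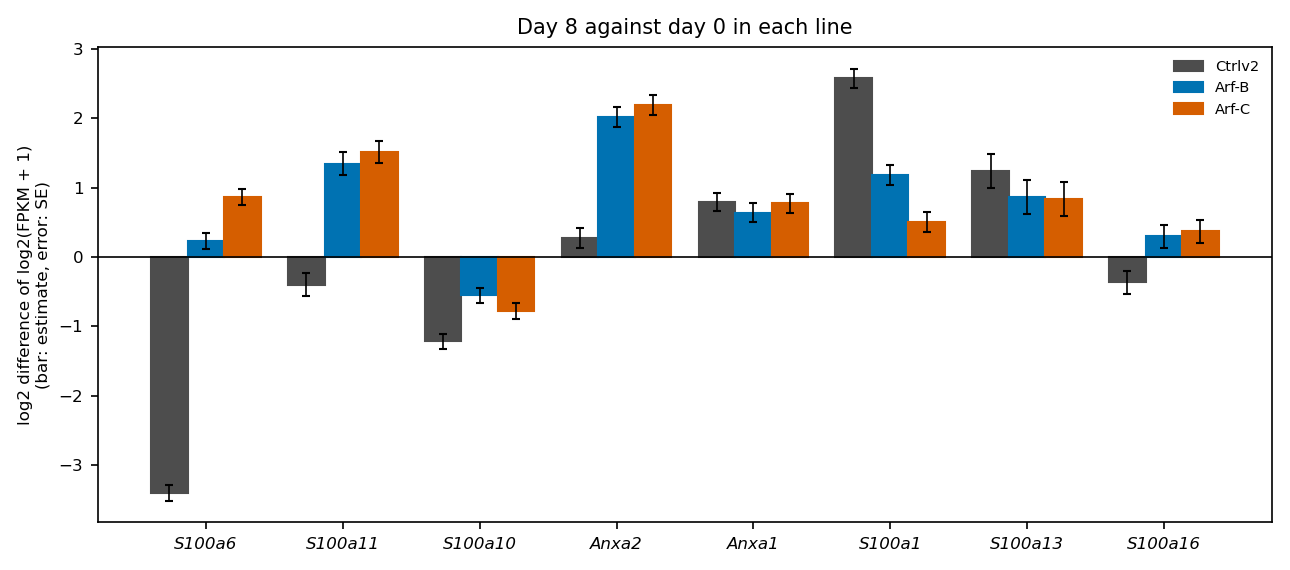
Log2 difference of log2(FPKM + 1) between day 8 and day 0 for the 8 tested members in Ctrlv2, Arf-B and Arf-C, with SE. S100a11 is at -0.40 in Ctrlv2 and at 1.35 and 1.52 in the Arf lines, Anxa2 at 0.28 against 2.02 and 2.20, S100a10 is below 0 in all 3 lines, and S100a1 at 2.58 against 1.18 and 0.51.

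Marker sums moved with several of these day 8 differences too. The 8 pluripotency markers summed to 105 to 136 FPKM in Ctrlv2 at day 8 and to 536 to 897 in the Arf lines, with 7 of 8 and 8 of 8 at a mean of at least 1 FPKM and none at 0. The 12 definitive endoderm and foregut markers summed to 42.7 to 50.7 FPKM in Ctrlv2 (8 of 12 at a mean of at least 1) and 28.5 to 33.6 in the Arf lines (7 of 12 in both). That gap was carried by Gata4, with means of 25.05, 6.39 and 7.01 in the order Ctrlv2, Arf-B, Arf-C. The other 11 summed to 22.5, 23.2 and 25.5, with differences in both directions. Of the 12, 5 were lower in every Arf library than in every Ctrlv2 library. Among them, beside Gata4, were Gata6 (2.28 and 2.68 against 6.47) and Prox1 (1.30 and 1.36 against 2.89). Another 2 were higher in every Arf library, among them Foxa1 (10.6 and 10.8 against 3.62). The primitive and parietal endoderm markers summed to 487 to 641 against 164 to 180 (10 of 11 in all lines), with 10 of the 11 lower in every Arf library than in every Ctrlv2 library. None of these was at 0 in a whole group at day 8. The sums of 7 simple epithelium markers overlapped between the lines at day 8 (574 to 651 in Ctrlv2, 486 to 650 in the Arf lines), but their make-up did not. Of the 7, 4 were higher in every Arf library than in every Ctrlv2 library, among them Cdh1 (means of 45.4 in Ctrlv2, 100.35 and 95.6 in the Arf lines) and Epcam (23.1, 91.0 and 86.8), and 2 were lower, Krt18 (238.0, 108.6 and 101.05) and Krt8 (164.9, 56.6 and 53.0). The part of these markers in the lower S100a1 and Anxa1 levels of the Arf lines at day 8 was not tested.

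Of 10 other S100 genes in the table, only S100g, which encodes the vitamin D-dependent calcium-binding protein calbindin-D9k and lies on the X chromosome, passed the filter. Its libraries at day 8 read 6.35, 6.47 and 6.09 FPKM in Ctrlv2, 0.344, 0 and 0.645 in Arf-B and 0.126, 0.730 and 0.524 for Arf-C. At day 0 it was between 0 and 0.413 in every library. S100g rose in Ctrlv2 (log2 2.70, SE 0.179, adjusted p = 1.32e-09) and, by less, in Arf-C (log2 0.52, adjusted p = 0.0169), a call lost without replicate 2 or 3 of Arf-C at day 8. In Arf-B it was 0.32 higher at day 8 (adjusted p = 0.125). It was lower at day 8 in Arf-B (log2 -2.49, adjusted p = 4.95e-08) and Arf-C (log2 -2.34, adjusted p = 9.60e-08). Like S100a1, it was highest in differentiated Ctrlv2 cells. S100g and the genes of the lists below come from lists drawn up with earlier results of these libraries known. Their adjusted p-values are thus a description and no independent test.

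Other annexins, which bind membranes in the presence of calcium as annexin A2 does, were 10 genes, of which 7 were tested. At day 0, 5 of the 7 were lower than in Ctrlv2 by the test in Arf-B and 4 for Arf-C, and 1 (Anxa9) was higher in Arf-C. Over all genes 39% were called in Arf-B (20% lower) and 42.8% for Arf-C (21.5% lower). Anxa5, whose protein is used as a probe for exposed phosphatidylserine, held 17.6 ± 0.630 FPKM in Ctrlv2, 5.61 ± 0.776 in Arf-B and 7.09 ± 0.386 for Arf-C (SD, n = 3; log2 -1.50, adjusted p = 1.06e-09, and -1.20, adjusted p = 9.24e-09). Anxa4 went from 10.6 ± 0.581 to 5.48 ± 0.231 and 5.09 ± 0.601 (log2 -0.83 and -0.93, adjusted p = 2.12e-07 and 6.21e-08), and Anxa6 from 26.1 ± 2.46 to 15.9 ± 2.57 and 13.5 ± 0.648 (log2 -0.68 and -0.89, adjusted p = 3.90e-05 and 2.26e-06). All 3 were in every Arf library below every Ctrlv2 library at day 0. Anxa7, the fifth of those lower in Arf-B, lost its call without replicate 1 or 3 of Ctrlv2 or replicate 1 or 2 of Arf-B. The list's median log2 difference was -0.68 and -0.89, beside 0.00 and 0.00 over all genes.

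Of these 7 annexins, 6 rose from day 0 to day 8 in Ctrlv2 and 1, Anxa7, fell, and in Arf-B 5 rose and in Arf-C 4, with Anxa7 again lower (log2 -0.71, -0.26 and -0.33). Over all genes 68.3%, 66.7% and 66.6% were called in either direction. Under the same sum per library the Anxa7 call was lost in both Arf lines. Of the rises in Ctrlv2, that of Anxa4 was lost without replicate 2 or 3 of either day and that of Anxa9 without replicate 1 or 3 of day 8. Anxa3 had the largest rise, from 2.44 ± 0.320 to 18.7 ± 0.793 FPKM in Ctrlv2, from 0.516 ± 0.116 to 13.7 ± 1.50 in Arf-B and from 0.522 ± 0.108 to 13.6 ± 1.11 for Arf-C (SD, n = 3; log2 2.52, 3.27 and 3.26, adjusted p = 1.24e-12, 1.05e-13 and 1.04e-13). Anxa5 rose to 24.2 ± 1.77, 20.1 ± 1.15 and 21.2 ± 0.523 FPKM. At day 8 Anxa3 was lower in both Arf lines (log2 -0.43 and -0.44, adjusted p = 0.0023 and 0.00194), as was Anxa4 (log2 -0.51 and -0.42, adjusted p = 5.07e-05 and 0.000279). The day response was larger than in Ctrlv2 by 0.75 and 0.74 for Anxa3 and by 1.24 and 1.02 for Anxa5 (log2, adjusted p = 0.000453, 0.000449, 8.34e-07 and 4.43e-06).

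**Figure D5:**
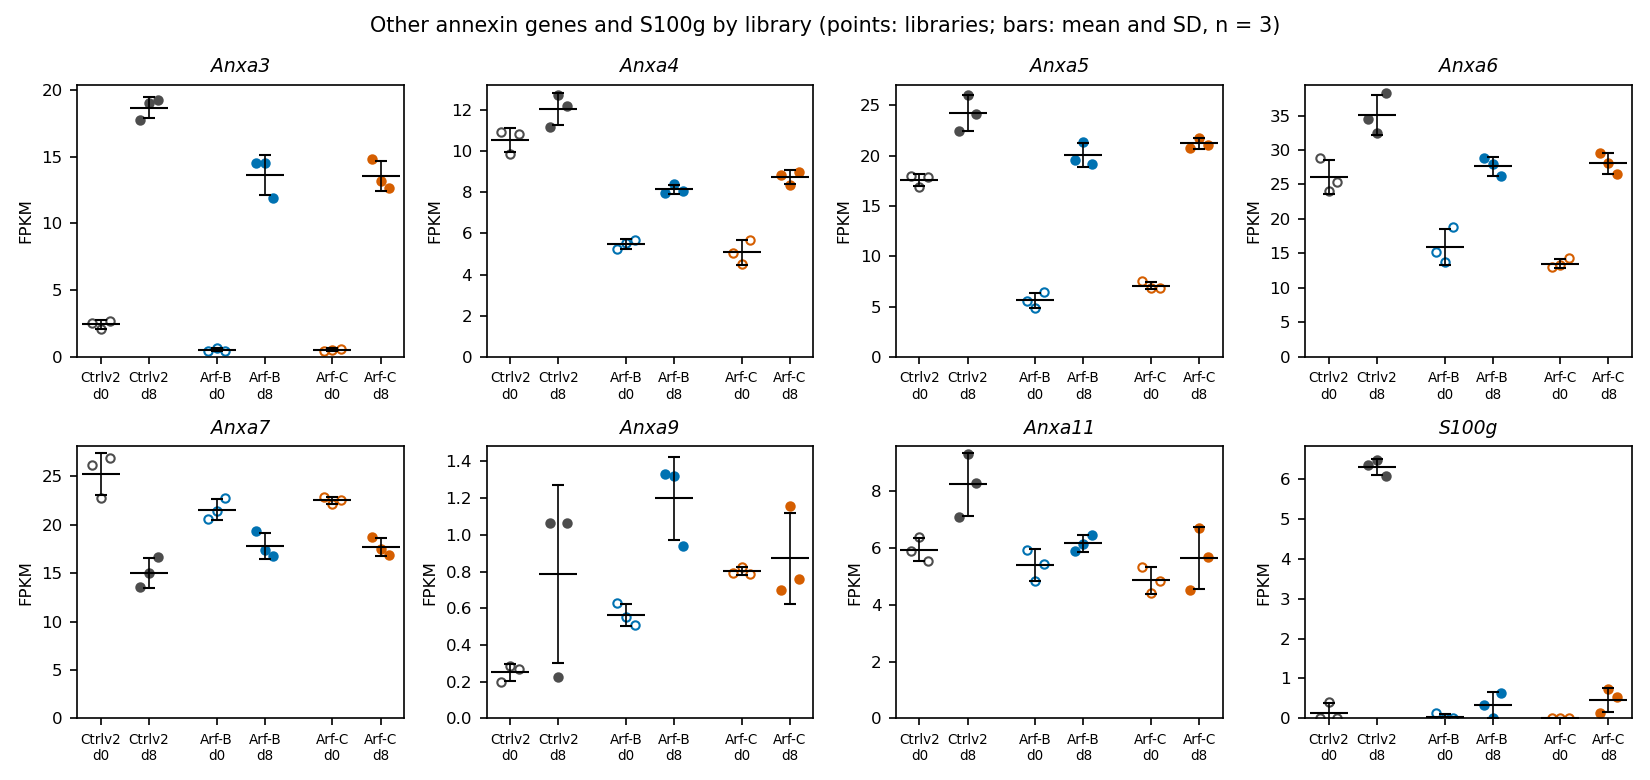
FPKM of the 7 other tested annexin genes and of S100g in each of 18 libraries, by line and day (d0, open points; d8, filled points), with group means and SD as black bars. Anxa5 stands at 16.86 to 18.005 FPKM in Ctrlv2 at day 0 against 4.85 to 7.53 in the Arf lines, Anxa3 rises in every line, and S100g reaches 6.09 to 6.47 in Ctrlv2 at day 8 and no more than 0.730 elsewhere.

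Among 14 tested genes for binding partners and receptors of these proteins, 4 were lower and 2 higher in Arf-B than in Ctrlv2 at day 0, and for Arf-C 4 and 3, a share near the 39% and 42.8% of all genes called in either direction. Sugt1, a co-chaperone of HSP90 whose product binds S100A6, was at 65.4 ± 3.47 FPKM in Ctrlv2 and 29.9 ± 1.19 and 30.3 ± 0.762 in the Arf lines (log2 -1.10 and -1.08, adjusted p = 5.41e-10 and 4.79e-10). Ahnak, the giant scaffold protein docked by the S100A10 and annexin A2 complex, was at 8.62 ± 1.40, 3.95 ± 0.510 and 4.14 ± 0.991 (log2 -0.96 and -0.91, adjusted p = 6.36e-05 and 8.51e-05), and was higher at day 8 in both Arf lines (0.66 and 0.68, adjusted p = 0.000579 and 0.000477) but not in Ctrlv2 (-0.02, adjusted p = 0.888). Myh10, the heavy chain of a nonmuscle myosin, was lower in Arf-C (7.47 ± 0.707 against 10.5 ± 1.03 FPKM, log2 -0.44, adjusted p = 0.00222). In the other direction, Hltf, a helicase-like chromatin protein, was at 7.70 ± 2.18, 12.8 ± 0.815 and 11.7 ± 0.715 FPKM (log2 0.70 and 0.58, adjusted p = 0.000449 and 0.00177). Ahnak2, a relative of Ahnak, was also higher, at 1.34 ± 0.149, 2.92 ± 0.172 and 3.74 ± 0.149 (log2 0.75 and 1.02, adjusted p = 3.64e-06 and 1.16e-07). Plat, the tissue plasminogen activator that binds annexin A2, rose in Ctrlv2 from 0.0714 ± 0.0247 to 9.95 ± 1.18 FPKM. At day 8 it was at 4.64 ± 0.440 and 4.73 ± 0.348 in the Arf lines (log2 -0.95 and -0.93, adjusted p = 4.51e-07 and 5.65e-07). Cacybp, the S100A6-binding protein, was at 116.8 ± 14.2, 124.2 ± 9.87 and 109.2 ± 11.2 FPKM at day 0, in the order Ctrlv2, Arf-B, Arf-C (log2 0.09 and -0.09, adjusted p = 0.502 and 0.471), with overlapping libraries.

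Of 18 tested genes for other EF-hand proteins, 13 were lower in Arf-B and 11 for Arf-C at day 0, and none higher, where 20% and 21.5% of all genes were lower. The list's median log2 difference was -0.41 and -0.34, beside 0.00 and 0.00 over all genes. Capns1, the small regulatory subunit of calpain, went from 247.1 ± 11.04 FPKM in Ctrlv2 to 103.9 ± 6.86 and 100.6 ± 14.2 (log2 -1.24 and -1.30, adjusted p = 1.57e-08 and 9.17e-09). Rcn1, a calcium-binding protein of the endoplasmic reticulum, went from 73.8 ± 0.508 to 29.7 ± 3.31 and 29.1 ± 2.78 (log2 -1.29 and -1.32, adjusted p = 2.41e-09 and 1.66e-09). Efhd2, an EF-hand protein that binds actin, went from 18.4 ± 2.90 to 10.2 ± 0.411 and 10.6 ± 0.312 (log2 -0.78 and -0.72, adjusted p = 1.68e-05 and 3.28e-05). Over the day response, 9 of the 18 fell and 7 rose in Ctrlv2, while 9 rose and 3 fell in Arf-B and 10 rose and 3 fell in Arf-C, beside 68.3%, 66.7% and 66.6% of all genes called in either direction. The counts and adjusted p-values of genes in these lists are a description, since the lists were drawn up with earlier results of these libraries known.

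The 28 tested genes that start within 500 kb of a member were counted in the same way. At day 0, 5 of them were higher and 3 lower in Arf-B, while for Arf-C it was 6 and 3, with medians of 0.02 and 0.02. That is a smaller share than the 39% and 42.8% of all genes. Jtb was higher in both Arf lines (19.3 ± 0.946, 28.1 ± 1.46 and 31.6 ± 2.21 FPKM in the order Ctrlv2, Arf-B, Arf-C), as was Snapin (15.99 ± 1.55, 19.8 ± 0.917 and 21.1 ± 1.87). Lower in both were Tpm3, a tropomyosin gene (91.6 ± 5.33, 69.5 ± 7.58 and 58.8 ± 4.14), and Slc27a3 (6.52 ± 0.857, 5.15 ± 0.407 and 4.16 ± 0.371). The Slc27a3 call in Arf-B was lost in a fit of the compared groups alone and without replicate 1 or 3 of Ctrlv2 or replicate 3 of Arf-B. Ubap2l was lower in Arf-B (10.8 ± 1.40 against 16.8 ± 1.16) and overlapped Ctrlv2 in Arf-C. In Ctrlv2 14 were higher and 4 lower at day 8, beside 68.3% of all genes called.

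The genes with the most similar patterns were found by Pearson's r of log2(FPKM + 1) over the 18 libraries, among 8654 candidate genes. The libraries form 6 groups of replicates, so r describes group patterns only. For S100a6 they were Tagln2 (r = 0.98), D17Wsu92e (0.97) and Slc29a3 (0.97). Tagln2, which encodes the actin-binding transgelin 2, was at 131.2 FPKM in Ctrlv2 at day 0 and at 42.9 to 56.4 in the other groups. For S100a11 they included Fbxo2 (0.95) and Slc39a11 (0.95), and for S100a10 they were Kars, Rundc3a (0.97 each) and Suds3 (0.96). Anxa2 was most like H13, Ppp1r9b and Abhd6 (0.97 each), and Anxa1 most like Lrp12 (0.97), Pdlim7 and Elf1 (0.96 each). S100a1 was most like Ccng2 and B2m (0.97 each) and Phf2 (0.96), B2m being the light chain of the class I histocompatibility molecule. For S100a13 the highest r was lower, 0.91 with Dnajc18, and for S100a16 it was 0.77 with Rhoa.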

How the data were processed

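RNA was measured as polyadenylated transcripts in 18 libraries. The authors' deposited table gives FPKM (fragments per kilobase of gene, scaled to library size) per gene, and per the submitters' processing notes HISAT2, featureCounts, DESeq2 and mm10 were used. Versions are not given in the sources used here. Each FPKM value times gene length was a whole multiple of a fixed step, which returned whole reads for 413772 of 413772 values above 0 (tolerance 0.01 reads). Positions of 98.26% of genes equal those of GENCODE vM21.

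FPKM was log-transformed as log2(FPKM + 1) after keeping genes that reached 0.5 FPKM in 3 or more libraries. limma 3.58.1 (R 4.3.3, trend and robust settings) was fitted with 1 coefficient per group over all libraries, with Benjamini-Hochberg adjustment over 17200 genes and calls at an adjusted p under 0.05. The fit was tested on simulated data. The members and lists were chosen with earlier results of these data known. From each list up to 4 called genes per comparison with the largest change and a mean of at least 5 FPKM in the higher group were named, or, with no call, the 2 most abundant. Values are given for the genes so named at day 0, except for 1 gene that is not reported here, and for part of those named in other comparisons. Cacybp at day 0, Ahnak in the Ctrlv2 day response, Anxa7 in that of the Arf lines, Anxa9 and Ahnak2 are given outside that rule and were chosen after their values were seen. Alternatives were another pseudocount (0.1), no filter, a mean of at least 1 FPKM, 2 other scalings, limma voom on recovered reads, replicate number as a term, a fit of the compared groups alone and each library left out. Replicate numbers were checked for pairing. No column of sample values was left unused. Intervals were not computed, and floors of 3 reads cover counting error only.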

Additional observations from a re-analysis of the deposited data

Results flagged for a closer look

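The difference between the change from day 0 to day 8 in an Arf line and that in Ctrlv2 is given below on the log2 scale, with Arf-B before Arf-C. For the S100 members and their annexin partners, which were chosen with these values in view, the threshold over all genes (limma, adjusted p under 0.05) is no independent test, and the values that passed it are a description. They were 3.63 and 4.26 for S100a6, 1.75 and 1.91 for S100a11, 0.66 and 0.44 for S100a10, 1.74 and 1.92 for Anxa2, -1.39 and -2.07 for S100a1 and 0.67 and 0.74 for S100a16. The S100a10 value for Arf-C was not called by limma voom on recovered reads, without the filter, or on leaving out replicate 1 or 3 of Ctrlv2 at day 0, replicate 1 or 2 of Ctrlv2 at day 8, replicate 1 or 3 of Arf-C at day 0 or replicate 1 or 2 of Arf-C at day 8 (0.33 to 0.44). The S100a16 value for Arf-B was not called without replicate 1 or 3 of either group of Ctrlv2 or of Arf-B (0.49 to 0.69), and that for Arf-C without replicate 1 of Ctrlv2 at day 0, replicate 3 of Ctrlv2 at day 8 or replicate 3 of Arf-C at day 8 (0.56 to 0.66).

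Outside the members, the difference passed the same threshold for the following genes. They come from lists drawn up with earlier results of these libraries known, so these values too are a description. S100g differed by -2.38 and -2.18, Anxa5 by 1.24 and 1.02, Anxa3 by 0.75 and 0.74, Anxa7 by 0.45 and 0.38 and Anxa4 by 0.33 and 0.51. Anxa6 differed by 0.58 in Arf-C. The Anxa4 value for Arf-B was not called without replicate 1 of Ctrlv2 at day 8 or replicate 1 of Arf-B at day 0. The S100g value in Arf-C was not called by limma voom on recovered reads. Each group had 3 samples, so single samples were not compared for distance from their group.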

How the results depend on the processing

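No log2 difference of a member changed sign where it was called. Over 1328 pairs of a member's comparison and an alternative, 1250 kept their side of the threshold, 60 lost the call and 18 gained one. With FPKM rescaled to the same sum per library, 5 members were called for Arf-B against Ctrlv2 at day 8, against 3. In a fit of the compared groups alone, 0 were called for Arf-B against Arf-C at day 0, against 1, and 0 to 2 on leaving out 1 library. Leaving out 1 library gave 5 to 7 for Ctrlv2 day 8 against day 0, 6 to 6 for Arf-B, 7 to 8 for Arf-C, 5 to 6 and 6 to 7 for Arf-B and Arf-C against Ctrlv2 at day 0, 3 to 4 for each at day 8, and 5 to 6 and 4 to 6 for the differences in day response. The same sum per library moved the median log2 difference of all genes by day to 0.14 in Arf-B and 0.12 in Arf-C (from -0.02 each) and the share of calls that were higher from 49% to 68.9% for Arf-B and from 50% to 63.6% for Arf-C against Ctrlv2 at day 8, from 49.4% to 62.5% and 49.2% to 60.4% for the day response, and from 52.1% to 64.3% for the Arf-B difference in day response. For Tpm3 it turned the day response to 0.017 in Arf-B and 0.15 in Arf-C, from -0.21 and -0.05. Before rescaling, summed FPKM at day 8 was 294727 to 310785 in Arf libraries and 313217 to 333326 in Ctrlv2. In Arf libraries at day 0 it was 331406 to 363377. Rescaling to the same sum raises libraries with a low sum against the others. Why the sums differed was not tested.

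Replicates sharing a number did not deviate together (r from -0.25 to 0.20 over 45 pairs, median 0.004, with 3 above 0.1). With the number as a block, 11721 genes were called for Ctrlv2 day 8 against day 0 (11752 without it), and 2 member calls were lost, S100a11 in that comparison (log2 -0.40) and S100a16 in the Arf-B difference in day response (0.67). Reads limit S100a4 most, with S100a6 in the Arf lines and S100g in every group except Ctrlv2 at day 8.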
